A study of Mus musculus with 24 samples.

Results

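The 40 DNA replication genes described here were taken by name from tables that list 30705 mouse genes. They cover origin licensing, helicase activation, DNA polymerases and primase, the sliding clamp with strand maturation, nucleotide supply, the E2F and cyclin E switch, and the copying of chromatin, which makes 7 role groups. All 40 were found, and all 40 passed the filter on low values that left 14405 genes for testing. Lenses of C57BL/6 mice were collected at embryonic days 15 and 18 (E15, E18) and at postnatal days 0, 3, 6 and 9 (P0, P3, P6, P9). The labels name no genetic change and no treatment in any group. Each stage had 2 biological replicates, called pool A and pool B here, and each pool combined lenses of 8 to 9 pups dissected with forceps. Libraries for mRNA sequencing (TruSeq RNA v2) were made from total RNA of whole lenses, so epithelium and fiber cells were not separated.

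DNA replication copies the genome once per cell cycle. Origins are licensed in G1 by loading the MCM helicase, the helicase is switched on at the start of S phase, and polymerases, clamp and ligase then build the new strands while ribonucleotide reductase and its partners supply nucleotides. E2F factors and cyclin E switch on many of these genes as a cell commits to S phase. In the lens, cells divide in the anterior epithelium, chiefly in a germinative zone near the equator, and stop dividing as they elongate into fibers.

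Levels are RPKM, that is reads per kilobase of transcript scaled to the library's read total; the unit is not stated and was inferred from the steps between low values. Estimated depth was 20300000 reads in the shallowest library (P9 pool B) and 43900000 reads in the deepest (E18 pool B), and a gene at 1 RPKM with a transcript of 2 kb rested on 40.7 to 87.7 reads. Levels well under 1 RPKM thus carry large counting error. Crystallins, the structural proteins of the lens, took 27.5% to 38.5% of summed RPKM in the E15 and E18 libraries and 50.9% to 61.3% in the later libraries. Since RPKM is relative to the library total, each comparison was repeated after median-ratio rescaling, which brings the typical gene to the same level in all libraries. Lens markers (Cryaa, Cryba1, Mip, Bfsp1, Lim2) were abundant in all 12 libraries. The E15 pools stood apart from each other: all 40 replication genes were higher in pool A than in pool B, with a median ratio of 1.91. Their median difference in log2(RPKM + 1) was 0.83, beside 0.25 over all genes tested. Because all stages shared 1 estimate of spread, this difference enters every test below.

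Replication transcripts were high at E15 and E18, dropped between E18 and birth, stood somewhat higher at P3 and were lowest at P9. Their summed level was 1365 and 738 RPKM in E15 pools A and B, 887 and 899 RPKM at E18, 242 and 257 RPKM at P0, 318 and 399 RPKM at P3, 213 and 192 RPKM at P6, and 152 and 153 RPKM at P9. Both pools of every postnatal stage lay below every embryonic pool. Relative to its own E18 mean, the median gene stood at 116.8% in E15 lenses, 26.3% in P0 lenses, 36.8% in P3 lenses, 21.9% in P6 lenses and 16.6% in P9 lenses. The highest stage mean was at E15 for 36 genes and at E18 for 4, and the lowest was at P9 for 38, at P0 for 1 and at P6 for 1. The place of E15 above E18 rested largely on E15 pool A, as E15 pool B summed to less than either E18 pool. Without E15 pool A the median change in log2(RPKM + 1) at E18 against E15 was 0.24, and without E15 pool B it was -0.58. At E15 28 of the 40 genes reached a mean of 10 RPKM, and at P9 none did, while 10 were under 1 RPKM there and none was at E15. In the joint test of stage (limma, Benjamini-Hochberg adjustment) all 40 passed at an adjusted p under 0.05, against 74.2% of all genes tested. With the level of Rax, a retinal progenitor marker described below, as a covariate, 28 of 40 passed, against 36.3% of all genes.

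**Figure D1:**
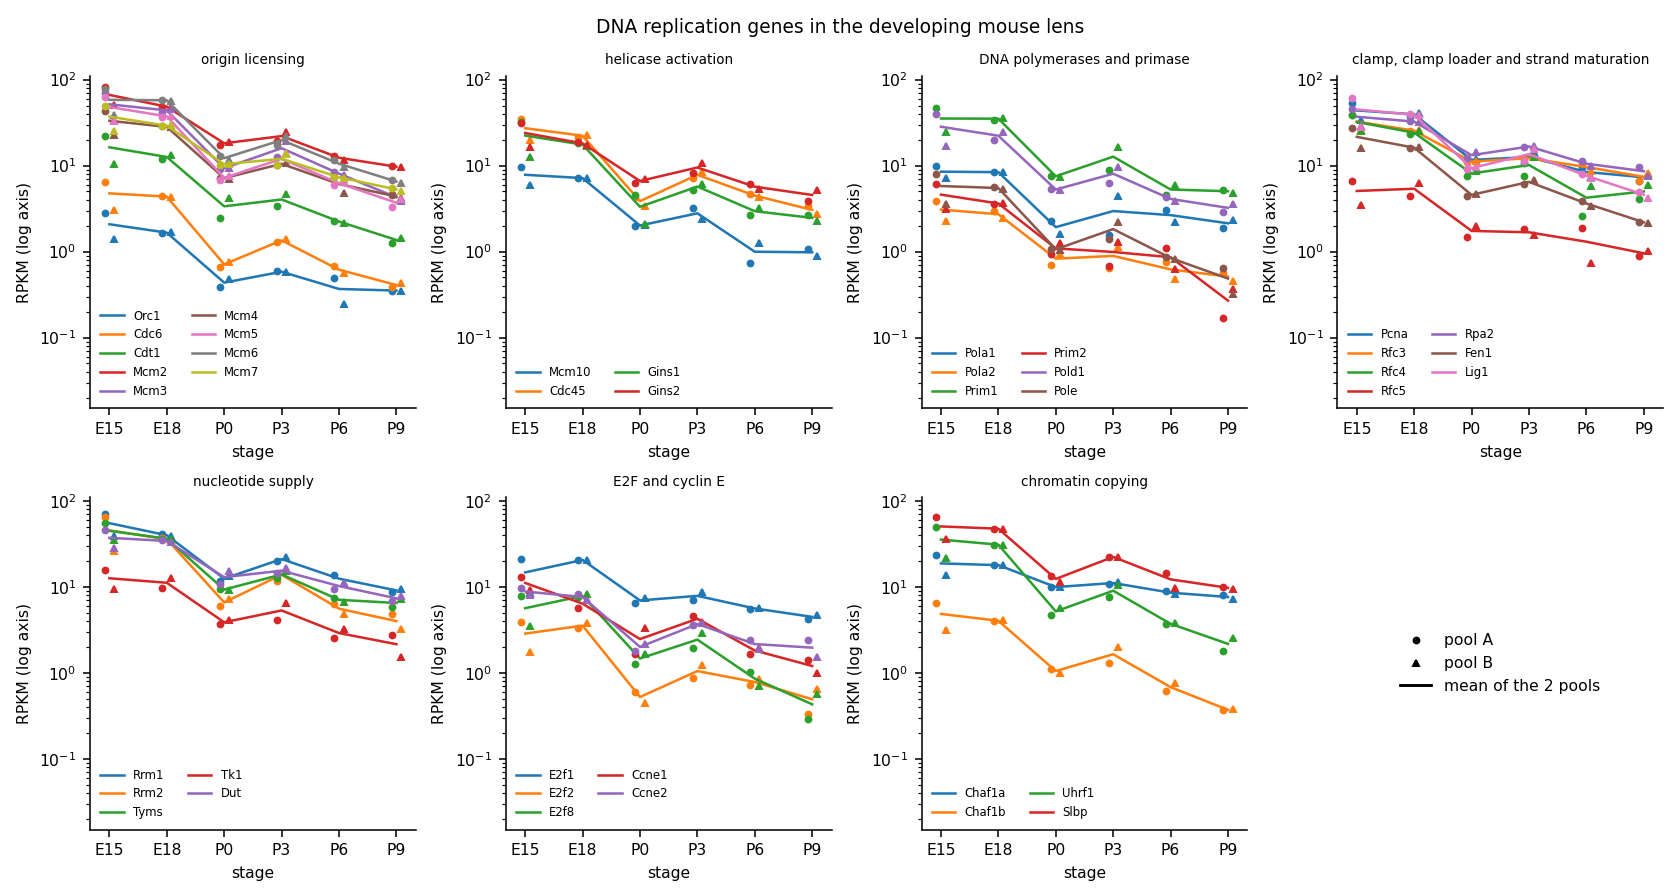
Level of each replication gene by stage, in RPKM on a log axis, with a panel per role group; circles are pool A, triangles are pool B and lines join the means of the 2 pools. Nearly all lines drop between E18 and P0, lift at P3 and end lowest at P9, and at E15 pool A lies above pool B for all 40 genes.

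At P9 against E15, all 40 genes fell (limma, adjusted p of 5.34e-06 to 0.00247). This is read against 55.4% of all genes tested that fell in the same comparison. The median log2 fold change, on the log2(RPKM + 1) scale used throughout, was -2.30 over the 40 genes, ranging from -3.42 to -1.15, beside -0.54 over all genes. After median-ratio rescaling the median was -1.77 over the 40 genes and -0.01 over all genes, all 40 still fell, and 19.6% of all genes did. In RPKM the median gene was 7.02-fold lower at P9 than at E15. Against E15 pool B alone it was 5.15-fold lower and against E15 pool A alone 9.21-fold lower. Leaving out pool A reduced the fold by more than 1.5 times for 15 genes (Orc1, Cdc6, Cdt1, Mcm3, Mcm6, Gins1, Pold1, Pole, Lig1, Rrm2, E2f1, E2f2, E2f8, Chaf1b and Uhrf1), with E2f1 at 1.88-fold in place of 3.29-fold and Uhrf1 at 9.92-fold in place of 16.3-fold. Every gene was lower in both P9 pools than in either E15 pool, as were 66% of all genes. A log2(RPKM + 1) change understates the change of low genes: Prim2, at 0.27 RPKM at P9 against 4.59 RPKM at E15, was 17.1-fold lower in RPKM with a log2 fold change of -2.10 ± 0.26 (SE). Where a gene is said below to have changed or fallen most or least, the order is that of log2(RPKM + 1) changes, which can differ from the order in RPKM.

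At birth, P0 against E18, all 40 genes fell as well (limma, adjusted p of 0.000477 to 0.00792), where 45.1% of all genes fell. The median log2 fold change was -1.61 (range -2.38 to -0.79), beside -0.41 over all genes, and the median gene was 3.81-fold lower in RPKM. Both P0 pools lay below both E18 pools for all 40 genes, as for 68.6% of all genes. The 4 largest changes on the log2 scale were those of Uhrf1 (-2.38 ± 0.30, SE), Rrm2 (-2.28 ± 0.34), Cdc45 (-2.26 ± 0.23) and Mcm5 (-2.23 ± 0.26). After median-ratio rescaling 39 of 40 fell, beside 17.1% of all genes, with a median of -1.19. Chaf1a no longer passed on that scale (-0.33 ± 0.14, limma adjusted p = 0.0921). With quantile normalization 36 fell, beside 17.2% of all genes.

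**Figure D2:**
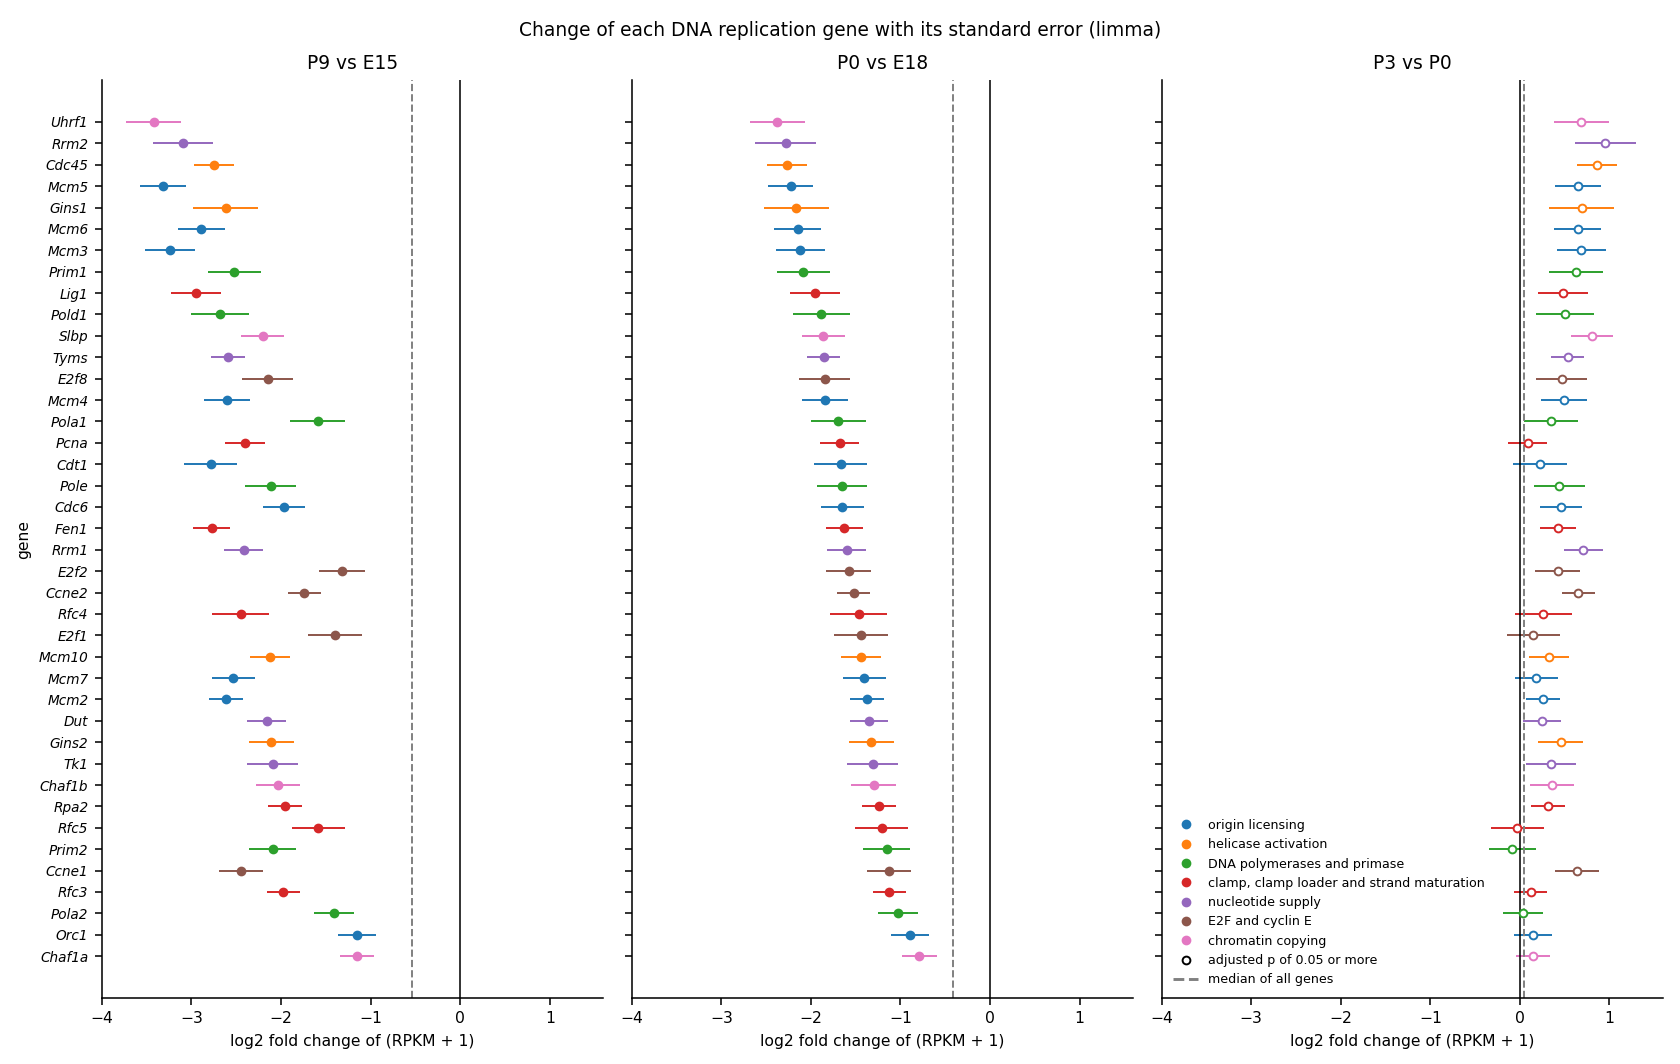
Log2 fold change of (RPKM + 1) with its standard error for each replication gene at P9 against E15, P0 against E18 and P3 against P0, ordered by the change at P0; colours give the role group, open circles an adjusted p of 0.05 or more (limma), and the dashed line the median of all genes. In the P9 and P0 panels all points lie left of that median, from -3.42 to -1.15 and from -2.38 to -0.79, and in the P3 panel 38 of 40 lie above 0 but none passes.

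Markers of other cells moved over the same interval. The summed level of 5 retinal progenitor markers (Rax, Sfrp2, Fgf15, Hes5, Lhx2) was 63.3 and 52.4 RPKM in the P0 pools, against 446 and 417 RPKM in the E18 pools. All 5 fell (limma), where 45.1% of all genes did, and after median-ratio rescaling 4 fell, where 17.1% of all genes did. Fgf15, the most abundant of the 5 markers, had 25.7 and 13.9 RPKM at P0 against 265 and 224 RPKM at E18. Rax, a transcription factor gene of retinal progenitors, stood at 75.6 and 20.2 RPKM in E15 pools A and B, 56.2 and 61.5 RPKM at E18, 11.7 and 9.42 RPKM at P0, 14.0 and 19.3 RPKM at P3, 9.77 and 5.42 RPKM at P6, and 7.48 and 11.8 RPKM at P9. It was thus higher in E15 pool A than in pool B, and in P3 pool B than in pool A, as were most replication genes. Rax was also higher in E18 pool B and in P6 pool A, as were 24 and 28 of the 40 genes. At P0 Rax was higher in pool A, where 28 of the 40 genes were higher in pool B. At P9 Rax was higher in pool B, where 20 genes were higher in pool A and 19 in pool B. With Rax as a covariate, 1 of 40 genes fell at P0 against E18 (Tyms, -1.07 ± 0.17, limma adjusted p = 0.0424), while 0.125% of all genes fell, and the median log2 fold change was -0.76 with all 40 below 0. With the same covariate 35 of 40 fell at P9 against E15, where 27.3% of all genes did. E2f1, E2f2, Orc1, Pola1 and Rfc5 did not pass there, with limma adjusted p of 0.292, 0.12, 0.0855, 0.111 and 0.104. Stage was also in that model, so the Rax slope came only from differences between the 2 pools of a stage. The widest of these was at E15, 75.6 against 20.2 RPKM, where all 40 genes were also higher in pool A. Counts with the covariate thus carry a slope that rests largely on the E15 pools over to the other stages. The covariate cannot tell cells carried from the retina apart from any other quantity that changed with stage as Rax did.

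Other marker lists gave the following values, whose part in the results was not tested. All 5 macrophage markers and all 5 endothelium markers fell at P0 against E18 (limma), where 45.1% of all genes fell; after median-ratio rescaling 4 and 3 of them fell, where 17.1% of all genes did. The macrophage sum, led by C1qc, was 11.03 and 21.0 RPKM at P0 against 57.5 and 72.7 RPKM at E18. The endothelium sum, led by Cdh5, was 20.6 and 28.3 RPKM at P0 against 53.1 and 75.3 RPKM at E18. Of 5 erythroid markers, led by Hba-a2, 3 fell at P0 against E18, where 45.1% of all genes did. At P3 against P0 3 of the erythroid markers rose, where 0.354% of all genes did. The sum of 5 mesenchyme markers, led by Pdgfra, was 17.5 and 16.1 RPKM at P0, against 14.6 and 17.0 RPKM at E18. The 5 photoreceptor markers summed to 4.27 and 3.52 RPKM at P0, against 16.7 and 17.0 RPKM at E18. In that comparison 1 of them fell, where 45.1% of all genes did. All 5 photoreceptor markers rose at P9 against E15, where 8.65% of all genes did. Of the 5 surface epithelium markers, Krt5 and Krt14 were listed at 0 in both P0 pools, and Krt5 was at 7.65 and 6.98 RPKM in the E15 pools. The 5 markers of the lens epithelium, which holds the dividing cells (Foxe3, Pax6, Cdh1, Npnt, Dkk3), summed to 1581 and 1562 RPKM at P0. At E18 they summed to 1011 and 953 RPKM. At P0 against E18 4 of them rose, where 7.72% of all genes did, and Pax6 fell, where 45.1% did. After median-ratio rescaling 4 rose and none fell, where 18% of all genes rose and 17.1% fell. At P9 against E15 2 of the 5 epithelium markers rose and 2 fell, where 8.65% of all genes rose and 55.4% fell. Their median log2 fold change was -0.13. After rescaling 2 rose and none fell, where 21.3% of all genes rose and 19.6% fell. In RNA of whole pools, fewer dividing cells and less replication RNA per cell cannot be told apart.

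**Figure D3:**
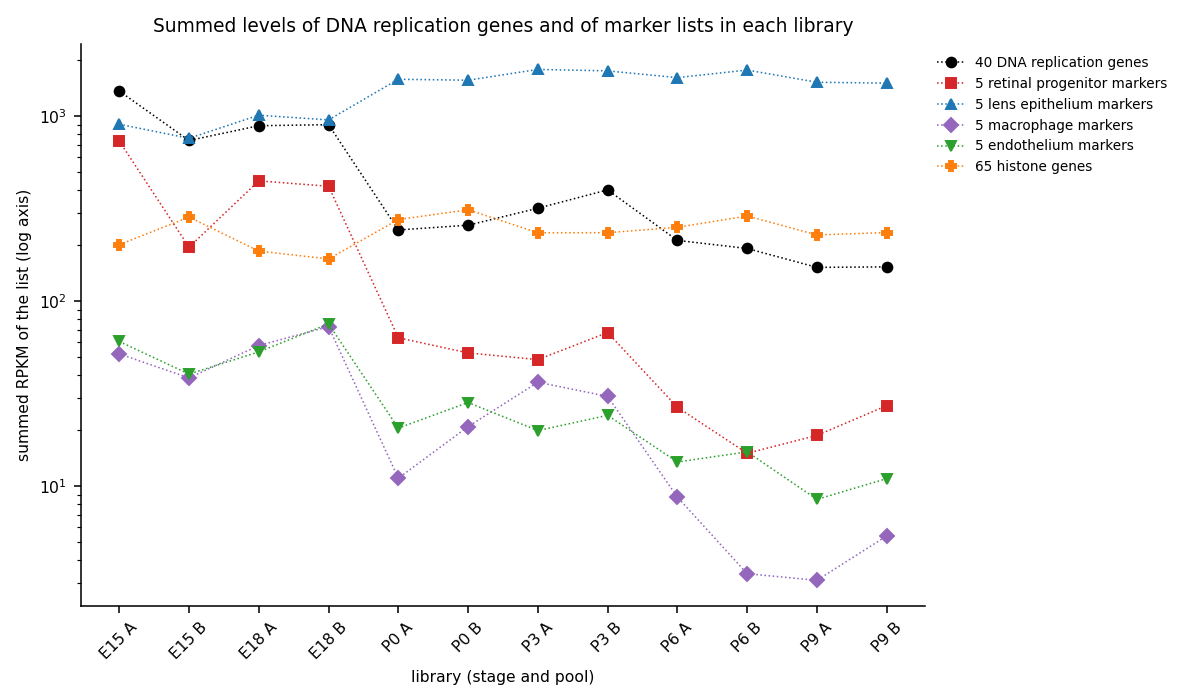
Summed RPKM (log axis) of the 40 replication genes, of 4 marker lists and of 65 histone genes in each of the 12 libraries. The replication sum and the retinal progenitor sum are both lower in all 8 postnatal libraries than in the 4 embryonic ones, while the lens epithelium sum is higher in the postnatal libraries.

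The promoters of the 40 genes, which were chosen by name, were read for short words that E2F factors are known to bind. As E2F factors are known to switch on many such genes, a high share was foreseen and is no result of these lenses. The shares beside it are over all genes with a window, not the genes tested, and were not matched for base composition. RefSeq windows (GRCm38.p6, 250 bases before to 50 after the start) were found for 34 of the 40 genes, the others being Pole, Prim2, Gins2, Ccne2, Mcm4 and Gins1. An E2F word (TTTCCCGC, TTTGGCGC, TTTCGCGC or TTTGCCGC, on either strand, overlapping matches counted as 1) was present for 13 of the 34 genes (38.2%), beside 2.6% of 27025 genes with a window. The CCAAT word, which the factor NF-Y binds, was present for 20 of 34 (58.8%), beside 41.1%. In all 4 word sets were searched: a second E2F set (TTCCCGCC, TTGGCGGG, TTTGGCGG and TTTCCCGC), which shares a word with the first, was found for 14 genes (41.2%, beside 4.41%), and TTTGAA, a core of the cell cycle homology region, for 5 (14.7%, beside 20.2%). Mcm3, Mcm6, Mcm7 and Rfc3 each held 2 matches of the first E2F set. At P9 against E15 the median log2 fold change was -2.68 over the 13 genes with a first-set word and -2.20 over the 21 without, given as a description with no test. Windows of 4 genes follow, 5′ to 3′ on the gene's strand, with matches of the first E2F set in capitals. Uhrf1 (chr17:56304063-56304362, plus strand) and Orc1 (chr4:108579204-108579503, plus strand) are the genes with the largest and the smallest log2(RPKM + 1) change at P9 against E15, and Mcm3 (chr1:20820263-20820562, minus strand) and Mcm6 (chr1:128359656-128359955, minus strand) changed most among the genes with 2 matches.
Uhrf1: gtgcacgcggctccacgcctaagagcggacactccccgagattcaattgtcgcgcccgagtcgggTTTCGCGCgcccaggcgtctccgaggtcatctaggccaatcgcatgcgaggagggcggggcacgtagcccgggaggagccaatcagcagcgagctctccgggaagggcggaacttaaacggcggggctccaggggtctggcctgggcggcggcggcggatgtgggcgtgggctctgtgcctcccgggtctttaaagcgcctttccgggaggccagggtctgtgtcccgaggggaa
Mcm3: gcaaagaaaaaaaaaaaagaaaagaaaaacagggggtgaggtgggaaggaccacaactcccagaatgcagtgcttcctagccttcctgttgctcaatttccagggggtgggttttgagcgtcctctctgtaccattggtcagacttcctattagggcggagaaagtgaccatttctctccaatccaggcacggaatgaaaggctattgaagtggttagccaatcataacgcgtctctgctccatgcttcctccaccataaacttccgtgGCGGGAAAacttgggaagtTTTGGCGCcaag
Mcm6: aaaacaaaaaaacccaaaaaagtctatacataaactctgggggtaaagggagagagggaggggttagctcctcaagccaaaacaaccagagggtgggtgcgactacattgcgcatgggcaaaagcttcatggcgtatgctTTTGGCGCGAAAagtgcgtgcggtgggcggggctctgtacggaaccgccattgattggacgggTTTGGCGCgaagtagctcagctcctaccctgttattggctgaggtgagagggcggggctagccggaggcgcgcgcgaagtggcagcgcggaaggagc
Orc1: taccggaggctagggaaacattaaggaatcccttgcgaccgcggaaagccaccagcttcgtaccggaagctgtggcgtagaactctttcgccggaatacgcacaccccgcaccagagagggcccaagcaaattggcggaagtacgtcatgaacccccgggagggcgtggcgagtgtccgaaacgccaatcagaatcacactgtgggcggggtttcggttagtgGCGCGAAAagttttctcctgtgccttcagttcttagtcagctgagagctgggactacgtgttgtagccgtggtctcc
The Uhrf1 window is 1 of 2 listed for that gene. A word match describes letters and no more: Uhrf1 and Orc1, at the 2 ends of the range of log2 change, each hold 1 match, and Mcm6 holds 2, the first of them made of overlapping words.

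Origin licensing genes mark and load origins, and all 9 fell at P9 against E15, with a median log2 fold change of -2.62. Mcm5, an MCM helicase subunit (chromosome 8, 75109468-75128439, GRCm38), stood at 63.4 and 32.7 RPKM in E15 pools A and B, 37.1 and 37.7 RPKM at E18, 6.78 and 7.65 RPKM at P0, 10.04 and 13.9 RPKM at P3, 5.92 and 6.56 RPKM at P6, and 3.34 and 4.05 RPKM at P9. Its pools did not overlap between P0 and E18 or between P9 and E15, and it was 13.0-fold lower in RPKM at P9 (-3.32 ± 0.26, SE; limma adjusted p = 7.25e-06). Orc1, the origin recognition subunit whose level cycles in dividing cells (chromosome 4, 108575705-108616030), had the smallest change of the group, at -1.15 ± 0.21. It measured 2.78 and 1.38 RPKM at E15, 1.63 and 1.69 RPKM at E18, 0.386 and 0.485 RPKM at P0, 0.591 and 0.575 RPKM at P3, 0.490 and 0.245 RPKM at P6, and 0.352 RPKM in each P9 pool. Orc1 was the least abundant member at the first 5 stages, so its small log2(RPKM + 1) change goes with a 5.91-fold lower RPKM at P9. Cdc6 and Cdt1, which load the MCM ring onto origins, were 11.6-fold and 11.96-fold lower at P9 than at E15, and 7.54-fold and 7.68-fold lower than E15 pool B alone.

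The 6 genes of the MCM ring kept levels within a narrow span of each other. The highest of them exceeded the lowest by 2.00-fold at E15, 2.04-fold at E18, 2.54-fold at P0, 2.10-fold at P3, 2.02-fold at P6 and 2.63-fold at P9, on the RPKM scale, which is per transcript length. Mcm4 was the lowest of the ring at all stages but P9, where Mcm5 was. Mcm2 and Mcm7 changed least at birth (-1.37 ± 0.19 and -1.41 ± 0.24), and Mcm5, Mcm6 and Mcm3 most (-2.23 ± 0.26, -2.15 ± 0.26 and -2.12 ± 0.28; SE); the differences between members were not tested.

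Helicase activation adds Cdc45 and the GINS subunits to the MCM ring, and all 4 genes of this group fell at P9 against E15 (median -2.37). Cdc45 (chromosome 16, 18780447-18811972) stood at 34.8 and 19.6 RPKM in E15 pools A and B, 21.7 and 22.8 RPKM at E18, 4.29 and 3.43 RPKM at P0, 7.15 and 8.48 RPKM at P3, 4.63 and 4.33 RPKM at P6, and 3.36 and 2.75 RPKM at P9. Both P3 pools lay above both P0 pools and below both E18 pools. The change was -2.75 ± 0.23 (SE) at P9 against E15. At P0 against E18 it was -2.26 ± 0.23, with the lowest limma adjusted p of the 40 genes in that comparison (0.000477). Gins2 changed least on both scales (-2.11 ± 0.25; 5.26-fold in RPKM), with 31.4 and 16.4 RPKM at E15, 18.9 and 17.4 RPKM at E18, 6.34 and 6.90 RPKM at P0, 8.29 and 10.7 RPKM at P3, 6.09 and 5.29 RPKM at P6, and 3.92 and 5.20 RPKM at P9. The mean of its partner Gins1 was 0.97 of the Gins2 mean at E18, 0.50 of it at P0 and 0.54 at P9. Gins1 pools A and B lay apart at E15 (32.1 and 12.6 RPKM) and at P0 (4.54 and 2.10 RPKM). The difference between the 2 genes was not tested. Mcm10, a helicase activation factor, was 7.97-fold lower at P9 than at E15.

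Among DNA polymerases and primase all 6 genes fell at P9 against E15 (median -2.11). Pold1, the catalytic subunit of lagging-strand polymerase delta (chromosome 7, 44532744-44548815), stood at 39.8 and 16.8 RPKM in E15 pools A and B, 19.8 and 24.8 RPKM at E18, 5.33 and 5.21 RPKM at P0, 6.34 and 9.75 RPKM at P3, 4.28 and 3.92 RPKM at P6, and 2.88 and 3.57 RPKM at P9. The pools of E15 were widest apart, yet both exceeded every postnatal pool. Pold1 changed most (-2.68 ± 0.32, SE; limma adjusted p = 7.48e-05), and Pola2, the accessory subunit of polymerase alpha, least (-1.41 ± 0.22), while in RPKM Prim2 changed most and Pola1 least (3.99-fold). Pola2 measured 3.90 and 2.27 RPKM at E15, 2.97 and 2.47 RPKM at E18, 0.707 and 0.948 RPKM at P0, 0.644 and 1.14 RPKM at P3, 0.761 and 0.480 RPKM at P6, and 0.571 and 0.453 RPKM at P9. Within the polymerase alpha and primase complex levels were uneven per transcript length: Prim1, the catalytic primase subunit, was 11.5-fold above Pola2 at E15 and 9.08-fold above it at P0. Pole, the catalytic subunit of leading-strand polymerase epsilon, averaged 1.06 RPKM at P0 against 5.48 RPKM at E18, and 0.49 RPKM at P9 against 5.79 RPKM at E15.

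The clamp and strand maturation genes also all fell at P9 against E15, 7 of 7 with a median of -2.40. Pcna, the sliding clamp (chromosome 2, 132249286-132253180), stood at 53.9 and 33.8 RPKM in E15 pools A and B, 38.0 and 40.9 RPKM at E18, 11.3 and 11.98 RPKM at P0, 10.6 and 14.6 RPKM at P3, 9.60 and 7.28 RPKM at P6, and 6.57 and 8.05 RPKM at P9, a change of -2.40 ± 0.22 (SE). Unlike Cdc45, its P3 and P0 pools overlapped. Lig1, the ligase that seals Okazaki fragments (chromosome 7, 13277175-13311426), changed most on the log2 scale (-2.94 ± 0.28; 9.80-fold in RPKM), with 61.5 and 28.5 RPKM at E15, 39.5 and 38.4 RPKM at E18, 9.17 and 9.51 RPKM at P0, 11.5 and 15.7 RPKM at P3, 8.03 and 7.20 RPKM at P6, and 4.99 and 4.20 RPKM at P9. Fen1, the flap nuclease that trims those fragments, was 9.85-fold lower at P9 than at E15. Rfc5, a clamp loader subunit, changed least on the log2 scale (-1.58 ± 0.30), where in RPKM Rpa2 did (4.30-fold), with 6.66 and 3.48 RPKM at E15, 4.45 and 6.32 RPKM at E18, 1.48 and 2.00 RPKM at P0, 1.81 and 1.54 RPKM at P3, 1.88 and 0.729 RPKM at P6, and 0.898 and 1.01 RPKM at P9. The clamp loader subunits Rfc3 and Rfc4 were level at E15, with a ratio of 1.01, and Rfc3 was 1.38-fold higher at P0 and 1.48-fold higher at P9. Rpa2, a subunit of the single-strand binding protein, averaged 13.2 RPKM at P0 against 32.5 RPKM at E18.

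Nucleotide supply genes fell likewise, 5 of 5 with a median of -2.42 at P9 against E15. Rrm2, the ribonucleotide reductase subunit that limits the enzyme in S phase (chromosome 12, 24708254-24714146), stood at 64.6 and 26.3 RPKM in E15 pools A and B, 37.0 and 34.9 RPKM at E18, 6.00 and 7.26 RPKM at P0, 11.8 and 16.0 RPKM at P3, 6.35 and 4.85 RPKM at P6, and 4.81 and 3.22 RPKM at P9. It was 11.3-fold lower in RPKM at P9 (-3.10 ± 0.34, SE; limma adjusted p = 4.48e-05), and its P3 pools lay above its P0 and P6 pools. Its partner Rrm1 exceeded Rrm2 by 1.22-fold at E15, 1.11-fold at E18, 1.89-fold at P0, 1.52-fold at P3, 2.23-fold at P6 and 2.27-fold at P9. Tk1, the salvage thymidine kinase, changed least on the log2 scale (-2.10 ± 0.28; 5.85-fold in RPKM), with 15.9 and 9.38 RPKM at E15, 9.72 and 12.7 RPKM at E18, 3.68 and 4.10 RPKM at P0, 4.12 and 6.55 RPKM at P3, 2.56 and 3.27 RPKM at P6, and 2.78 and 1.54 RPKM at P9. Tyms, which makes thymidylate, was 6.92-fold lower at P9 than at E15, and Dut, which removes dUTP, 5.07-fold lower. A Tyms pseudogene is listed in the same tables, and reads that fit both could be placed on either.

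The E2F and cyclin E group had the smallest median log2 change of the 7 groups at P9 against E15, -1.74, with 5 of 5 genes falling. In RPKM its median gene was 5.81-fold lower, near the 5.995-fold of the clamp group and the 6.06-fold of nucleotide supply. Differences between groups were not tested. The E2F and cyclin E group also held 3 of the 4 genes whose mean was highest at E18: E2f1, E2f2 and E2f8. E2f1, an activator of S-phase genes (chromosome 2, 154559400-154569892), stood at 21.1 and 8.44 RPKM in E15 pools A and B, 20.6 and 20.7 RPKM at E18, 6.56 and 7.40 RPKM at P0, 7.07 and 8.71 RPKM at P3, 5.60 and 5.67 RPKM at P6, and 4.20 and 4.78 RPKM at P9 (-1.40 ± 0.30 at P9 against E15, SE; limma adjusted p = 0.00247). Its E18 pools both lay between the E15 pools. E2f2, a second activator, changed least on the log2 scale (-1.32 ± 0.25; 5.81-fold in RPKM, where E2f1 with 3.29-fold changed least), with 3.97 and 1.78 RPKM at E15, 3.32 and 3.79 RPKM at E18, 0.599 and 0.453 RPKM at P0, 0.863 and 1.24 RPKM at P3, 0.716 and 0.855 RPKM at P6, and 0.337 and 0.652 RPKM at P9. E2f2 kept the smallest share of its E18 level of any member at P0, 14.8%. E2f8, an E2F that represses S-phase genes, kept the smallest share at P9, 5.49%, with an RPKM 13.1-fold lower than at E15.

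The cyclin E genes, whose products activate Cdk2 at the entry to S phase, changed by different amounts. Ccne1 (chromosome 7, 38097984-38107490) changed most of the E2F and cyclin E group on the log2 scale (-2.45 ± 0.25, SE; 9.25-fold in RPKM, where E2f8 changed most), with 13.2 and 9.13 RPKM in E15 pools A and B, 5.76 and 7.05 RPKM at E18, 1.65 and 3.31 RPKM at P0, 4.59 and 3.95 RPKM at P3, 1.68 and 1.98 RPKM at P6, and 1.41 and 1.00 RPKM at P9. Ccne2 changed by -1.74 ± 0.18 over the same span. The level of Ccne1 was 1.26 times that of Ccne2 in E15 lenses, 0.84 times in E18 lenses, 1.23 times in P0 lenses, 1.15 times in P3 lenses, 0.84 times in P6 lenses and 0.61 times in P9 lenses; the difference between the genes was not tested.

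Chromatin copying genes held both the largest and nearly the smallest log2 change of all 40, and 4 of 4 fell at P9 against E15 (median -2.12). Uhrf1, which brings the maintenance DNA methyltransferase to new strands (chromosome 17, 56303337-56323486), stood at 49.6 and 21.6 RPKM in E15 pools A and B, 30.9 and 31.2 RPKM at E18, 4.71 and 5.70 RPKM at P0, 7.59 and 10.5 RPKM at P3, 3.68 and 3.79 RPKM at P6, and 1.82 and 2.54 RPKM at P9. It was 16.3-fold lower in RPKM at P9 (-3.42 ± 0.30, SE; limma adjusted p = 1.48e-05). Chaf1a, the large subunit of the chromatin assembly factor that loads histones behind the fork (chromosome 17, 56040416-56068026), was 2.46-fold lower (-1.15 ± 0.19). Its levels were 23.7 and 14.0 RPKM at E15, 18.0 and 17.9 RPKM at E18, 9.90 and 10.1 RPKM at P0, 10.9 and 11.4 RPKM at P3, 8.90 and 8.29 RPKM at P6, and 8.05 and 7.25 RPKM at P9. Chaf1a kept the largest share of its E18 level of any member, 55.6% at P0 and 42.6% at P9, whereas Chaf1b, a partner subunit of the same factor, was 13.1-fold lower at P9 than at E15. Per transcript length, Chaf1a exceeded Chaf1b 3.87-fold in E15 lenses, 4.43-fold in E18 lenses, 9.47-fold in P0 lenses, 6.74-fold in P3 lenses, 12.6-fold in P6 lenses and 20.5-fold in P9 lenses, with Chaf1b at 0.37 RPKM at P9. Slbp, which binds the stem-loop of replication-dependent histone mRNAs, averaged 12.4 RPKM at P0 against 47.7 RPKM at E18 and was the most abundant member at P3 and P9.

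**Figure D4:**
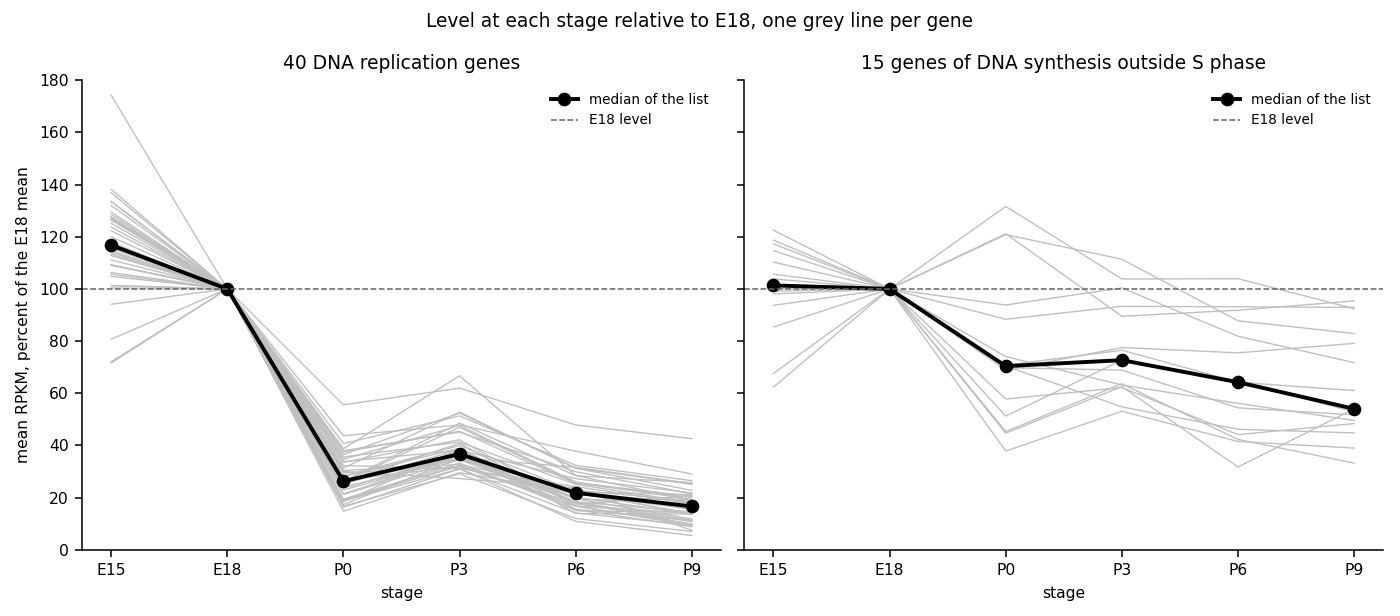
Mean RPKM at each stage as a percentage of the gene's E18 mean, for the 40 replication genes and for 15 genes of DNA synthesis outside S phase; grey lines are genes and the black line is the median of the list. The replication median drops to 26.3% at P0 and 16.6% at P9, and the median of the other list stands at 70.4% and 54.0%.

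Before birth, at E18 against E15, none of the 40 genes passed in either direction (limma), where 3.67% of all genes fell and 5.48% rose. At an unadjusted p under 0.05, 1 gene fell (Ccne1, -0.70 ± 0.25, SE; limma adjusted p = 0.105), where 10.7% of all genes did. The median log2 fold change was -0.15, with 33 of 40 genes below 0. Both the counts and the direction changed with the E15 pools. Without E15 pool B 10 genes fell, where 4.25% of all genes did, and the median was -0.58. Without E15 pool A 5 rose, where 25.9% of all genes did, and the median was 0.24. With Rax as a covariate 7 fell, where 6.2% of all genes did. Both E18 pools lay below both E15 pools for 3 genes of 40, where 21.9% of all genes did.

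At P3 most replication genes stood somewhat higher than at P0, by an amount that passed under some settings. No gene passed at P3 against P0 (limma), where 0.354% of all genes rose and 0.167% fell, and 11 of the 40 rose at an unadjusted p under 0.05, where 6.35% of all genes did. The median log2 fold change was 0.43, with 38 of 40 genes above 0, beside 0.05 over all genes. Both P3 pools lay above both P0 pools for 30 of 40 genes, where 30.1% of all genes did. Without both E15 libraries, which narrows the shared spread, 5 genes rose, where 1.31% of all genes did. These were Cdc45 (0.86 ± 0.13, SE; limma adjusted p = 0.0137), Rrm1 (0.71 ± 0.12, adjusted p = 0.0161), Slbp (0.81 ± 0.15, adjusted p = 0.0322), Rrm2 (0.95 ± 0.19, adjusted p = 0.04) and Mcm6 (0.65 ± 0.13, adjusted p = 0.0441). The P3 pools differed from each other, with 36 of 40 genes higher in pool B and a median ratio of pool B to pool A of 1.29. Over the same interval the macrophage sum was 36.4 and 30.5 RPKM at P3 against 11.03 and 21.0 RPKM at P0. The erythroid sum was 719 and 595 RPKM at P3 against 66.2 and 153 RPKM at P0, while the retinal progenitor sum was 48.2 and 67.6 RPKM at P3 against 63.3 and 52.4 RPKM at P0. Their part in the P3 values was not tested.

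After P3 the levels went down again. At P6 against P3 no gene passed (limma), where 0.861% of all genes fell and 0.215% rose, and 28 of the 40 fell at an unadjusted p under 0.05, where 18.5% of all genes did. All 40 had a log2 fold change below 0, with a median of -0.68 beside -0.21 over all genes and of -0.45 after median-ratio rescaling. Both P6 pools lay below both P3 pools for 36, where 58.6% of all genes did. The lowest limma adjusted p was that of Tyms, 0.0588. Without both E15 libraries 29 genes fell, where 14% of all genes did. At P9 against P6 no gene passed (limma), where 0.0347% of all genes fell and 0.0764% rose, and 5 of the 40 fell at an unadjusted p under 0.05, where 2.85% of all genes did. With Rax as a covariate 1 fell (Mcm6), where 0.139% of all genes did. The median was -0.31, 39 of 40 were below 0, and both P9 pools lay below both P6 pools for 28, where 25.7% of all genes did.

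Over the postnatal days as a whole, P9 against P0, a comparison added after the data were seen, 4 of 40 genes fell and none rose, where 9% of all genes fell and 2.65% rose. They were Mcm2 (-0.84 ± 0.19, SE; limma adjusted p = 0.0213), Fen1 (-0.80 ± 0.20, adjusted p = 0.0313), Mcm7 (-0.86 ± 0.24, adjusted p = 0.0457) and Mcm3 (-0.97 ± 0.28, adjusted p = 0.0465). Both P9 pools lay below both P0 pools for 36 of 40, where 53.6% of all genes did, and the median log2 fold change was -0.58 beside -0.21 over all genes. Without both E15 libraries 25 genes fell, where 24% of all genes did, and 25 fell without either E15 pool, where 24.1% of all genes did. Leaving out any P0 or P9 pool left none. With Rax as a covariate 21 fell, where 21.1% of all genes did.

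Other genes of the pathway were taken from lists chosen for their function. Of 32 other replication fork and origin genes 30 fell and none rose at P9 against E15, with a median log2 fold change of -1.75, and 26 fell and 1 rose at P0 against E18 (limma). Of all genes, 55.4% fell and 8.65% rose in the first of these comparisons, and 45.1% fell and 7.72% rose in the second. After median-ratio rescaling 24 of the 32 fell and 2 rose at P9 against E15, and 18 fell and 2 rose at P0 against E18, where 19.6% and 17.1% of all genes fell and 21.3% and 18% rose. Gmnn, the licensing inhibitor geminin, fell most at P9 (-3.22 ± 0.32, SE), at 4.87 and 2.71 RPKM against 55.0 and 32.5 RPKM at E15. Pold4, a small polymerase delta subunit, had 4.65 and 5.96 RPKM at P9 against 4.88 and 4.86 RPKM at E15. The gene that rose at P0 was Timeless (0.76 ± 0.29, limma adjusted p = 0.0471), a fork protection factor, at 17.2 and 36.6 RPKM in the P0 pools against 14.3 and 14.7 RPKM at E18. Among the origin recognition subunits, Orc2 averaged 14.4 RPKM at both P0 and E18 (0.01 ± 0.13), beside the 3.82-fold lower RPKM of Orc1 at P0.

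The remaining lists followed in part. Their counts are read against 55.4% of all genes that fell at P9 against E15 and 45.1% at P0 against E18. After median-ratio rescaling 19.6% and 17.1% of all genes fell, and 21.3% and 18% rose. Of 12 other E2F-family and pocket protein genes 11 fell at P9 against E15 and 10 at P0 against E18 (limma), and after median-ratio rescaling 8 fell with 1 rising and 5 fell. Ccna2, the S-phase cyclin A, fell most at P9 (-2.94 ± 0.23, SE), while Rbl2, the pocket protein p130 of resting cells, had 4.27 and 5.20 RPKM at P9 against 3.87 and 3.73 RPKM at E15. Of 10 S-phase chromatin genes all 10 fell at P9 against E15 and 7 at P0 against E18, and after rescaling 7 fell in each with 1 rising at P0. Hells, a chromatin remodeler, fell most at P9 (-2.70 ± 0.27) and the histone chaperone gene Rbbp4 least (-0.41 ± 0.10), with Rbbp4 at 104 and 87.6 RPKM at P9 against 126 and 129 RPKM at E15. Of 10 other nucleotide synthesis genes 9 fell at P9 against E15 and all 10 at P0 against E18, and after rescaling 6 fell with 1 rising and 5 fell. In this list Shmt1 fell most at P9 (-2.47 ± 0.25), and Impdh1 had 11.7 and 21.6 RPKM at P9 against 15.1 and 8.64 RPKM at E15.

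Genes of DNA synthesis outside S phase serve repair and mitochondrial DNA. Of 15 such genes 8 fell and none rose at P9 against E15 (limma), where 55.4% of all genes fell, with a median log2 fold change of -0.53 beside -0.54 over all genes, and after median-ratio rescaling 3 fell and 2 rose. At P0 against E18, 6 fell, where 45.1% of all genes did, and after rescaling 3 fell and 3 rose. After rescaling 19.6% of all genes fell and 21.3% rose at P9 against E15, and 17.1% fell and 18% rose at P0 against E18. Samhd1, which breaks down nucleotides, fell most at P9 (-1.28 ± 0.19, SE), at 2.16 and 2.33 RPKM against 8.31 and 5.70 RPKM at E15. Tk2, the mitochondrial thymidine kinase, had 6.56 and 8.23 RPKM at P9 against 8.79 and 6.58 RPKM at E15, while Tk1 was 5.85-fold lower. The difference between the lists was not tested.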

How the data were processed

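The series holds mRNA and small-RNA libraries of mouse lens at 6 stages, 2 pools each; only the 12 mRNA libraries were used. The authors deposited a table per library with a value per gene symbol, with no unit stated in the labels or headers. The deposited values were read as RPKM: low values are multiples of a step inverse to transcript length, with 69.5% to 76.0% whole within 0.1 read, where chance gives 20%. Bowtie 0.12.8, SAMtools 0.1.18 and builds GRCm38 and mm10 are named per the submitters' processing notes; how reads were counted was not stated there. Positions are RefSeq's on GRCm38.

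Genes with at least 1 RPKM in at least 2 libraries were tested on log2(RPKM + 1) with limma 3.58.1 in R 4.3.3: stage as a factor over 12 libraries, 6 residual degrees of freedom, intensity trend, Benjamini-Hochberg adjustment over 14405 genes, called at an adjusted p under 0.05. The procedure was tested on simulated data. Tables and plots used Python 3.11.15, pandas 2.3.3 and matplotlib 3.10.9. Alternatives were a pseudocount of 0.1, no filter, median-ratio and quantile scaling, Rax as covariate, a replicate block, no trend, and each library left out. The 40 members and all lists were chosen with earlier results of these data known. Every member may be named; both pools are given for the members of each role group that changed most and least at P9 against E15, and from other lists the extremes of that comparison. Pcna, E2f1, Orc2 and Timeless were added after their values were seen. Ticrr and Supt16 were matched through RefSeq synonyms. Some marker genes are not reported here and are in no sum or count.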

Additional observations from a re-analysis of the deposited data

How the results depend on the processing

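All 40 genes passed the joint test of stage, and all 40 fell at P9 against E15, under each scaling, filter, pseudocount, variance model and left-out library tried; with Rax as a covariate these counts were 28 and 35. With E18 in place of E15, an alternative added after seeing the data, all 40 fell at P9. At P0 against E18 36 to 40 fell under all alternatives but Rax as a covariate, which left 1; with quantile normalization Ccne1, Chaf1a, Orc1 and Rfc5 did not pass. Rfc5 was also lost without E18 pool B and without P0 pool A, which left 39 each. The cause of these losses was not tested. At P9 against E15 and at P0 against E18 none of the 40 genes changed sign under any alternative tried; at the other comparisons 5 to 34 genes did under at least 1, and 1 of these passed, Chaf1a at E18 against E15 without E15 pool A (0.34 ± 0.12, limma adjusted p = 0.0439, beside -0.02). The letters A and B do not pair the pools: over 15 pairs of stages the correlation of deviations ran from -0.25 to 0.21 and exceeded 0.1 in 2. With the letter as a replicate block 40 fell at P9 against E15, 40 at P0 against E18 and 2 at P9 against P0.

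Counts in the other comparisons changed with the libraries used, and at E18 against E15 so did the median log2 fold change, -0.58 without E15 pool B and 0.24 without E15 pool A. Leaving out 1 library, with the remaining pool of its stage assumed to vary like the other stages, gave 0 to 10 falls and 0 to 5 rises at E18 against E15, 0 to 5 rises at P3 against P0, 0 to 29 falls at P6 against P3 and 0 to 25 falls at P9 against P0. Where both E15 libraries were left out, 5 rose at P3 against P0, 29 fell at P6 against P3 and 25 fell at P9 against P0. The Rax covariate gave 7 falls at E18 against E15, 1 (Mcm6) at P9 against P6 and 21 at P9 against P0. At P9 against P0 a pseudocount of 0.1 gave 12 falls, no filter 1, median-ratio rescaling 2, quantile normalization 1 and no intensity trend 2, beside 4. Of all genes, 2.53% fell there with median-ratio rescaling and 2.94% with quantile normalization, beside 9%. The counts with the other pseudocount, no filter and no trend are given without a share over all genes, so they cannot be read against one.

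Limits: each stage has 2 pools, and the unit and the counting of reads that fit several genes were not stated. Members under 1 RPKM, 10 of 40 at P9, rest on few reads, so their ratios carry counting error beyond the pool spread. A retinal progenitor signal, largest in E15 pool A and E18, went down as the members did at P0 against E18, P6 against P3 and P9 against E15. Its median log2 fold change was 0.63 at E18 against E15 and 0.025 at P3 against P0. Over the members these medians were -0.15 and 0.43. Its part in the results was not tested beyond the Rax covariate, whose slope came only from differences between pools of a stage, widest at E15. Whole lenses do not tell cell number from RNA per cell.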

Other observations

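Histone genes were looked at after the Slbp values were seen. The 65 gene symbols of the clusters Hist1h to Hist4h summed to 202 and 284 RPKM in E15 pools A and B, 186 and 169 RPKM at E18, 276 and 312 RPKM at P0, 234 and 234 RPKM at P3, 251 and 288 RPKM at P6, and 228 and 235 RPKM at P9. Their sum was higher in both P0 pools than in both E18 pools, where the replication sum was lower. The symbols were taken by cluster name and were not sorted by whether their mRNAs end in the stem-loop that Slbp binds. The sum is thus no measure of replication-dependent histone mRNA, and how far the libraries captured such mRNA was not tested. Of the 33 that passed the filter on low values, 3 fell and 7 rose at P0 against E18 (limma), with a median log2 fold change of 0.14, where 45.1% of all genes fell and 7.72% rose. At P9 against E15 9 of the 33 fell and 5 rose, with a median of -0.17, where 55.4% of all genes fell and 8.65% rose. Much of the higher sum at P0 lay in Hist1h1c and Hist1h2bc. Hist1h1c was at 53.6 and 94.1 RPKM at P0 against 13.6 and 10.2 RPKM at E18. Hist1h2bc was at 53.9 and 52.1 RPKM at P0 against 26.4 and 20.2 RPKM at E18. Hist3h2ba, also a large part of the sum, was at 68.4 and 67.1 RPKM at P0 against 57.3 and 58.9 RPKM at E18. Near-identical histone copies share reads, which makes values of single histone genes uncertain.

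Polb, the repair polymerase beta, was chosen after its values were seen: it measured 41.5 and 41.4 RPKM at P9 against 43.8 and 45.5 RPKM at E15, and 40.1 and 38.7 RPKM at P0 against 44.9 and 44.3 RPKM at E18.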
